A study of Mus musculus with 26 samples.

Results

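DN1 thymocytes were compared with common lymphoid progenitors (CLP) of the bone marrow, across genes, on Affymetrix mouse expression arrays. The members of the comparison are the 3 arrays titled DN1 and the 3 arrays titled CLP, 6 of the 26 arrays of the study. The study set 8 blood progenitor populations side by side, and these arrays measured their messenger RNA. Every array of both groups is labelled as C57/Bl6, male and 2 months of age, and the labels name no treatment or altered allele for either group. The CLP arrays are labelled bone marrow, with ALP as the progenitor population where the title reads CLP. The DN1 arrays are labelled thymocyte. Tissue therefore changes together with the population, and the effect of the organ cannot be told apart from that of the developmental step. The labels do not state the sort gate, the number of animals per array or that replicates came from separate animals. The p-values therefore measure the spread between arrays within populations, pooled over all 26 arrays, and this spread may be technical.

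By way of background, CLP are marrow progenitors from which B cells arise and which can also give T cells and other lymphocytes. DN1 is the earliest thymocyte stage, lacking CD4 and CD8, and includes the progenitors that have recently entered the thymus along with cells able to become other lineages. In the thymus these progenitors meet Notch ligands on epithelial cells. Ligand binding frees the intracellular part of the Notch1 receptor, which joins the DNA-binding protein RBPJ and turns on target genes such as Hes1 and, with further factors, Gata3 and Il2ra, while B cell potential is lost.

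The arrays reported 45101 probe sets as log2 signals, and 18193 genes were tested, each by its brightest probe set. The lowest value of the table, 2.17, is called the floor below, and between 33.8% and 37.3% of probe sets per array sat at it. On all 6 arrays 3701 genes were at the floor. Pearson correlations across genes, which are not independent replicates, were 0.996 to 0.997 among CLP arrays, 0.986 to 0.991 among DN1 arrays and 0.962 to 0.971 between the populations. Some DN1 arrays went against their label. Xist, an RNA that coats the silenced X chromosome of female cells, read 2.19 on all CLP arrays and 12.21, 2.18 and 13.59 on DN1 replicates 1, 2 and 3. Eif2s3y, a Y-linked gene, read 12.05, 11.56 and 11.90 in CLP and 12.76, 13.39 and 2.62 in DN1. DN1 replicate 3 thus carried a female pattern and replicate 1 both signals, so results that rest on them are also given from DN1 replicate 2 alone against CLP, in a fit that assumes the lone array to vary like the other groups. Probe sets for spike-in controls, RNA that a laboratory can add to a sample, averaged 3.98 to 4.38 on the CLP arrays. On the DN1 arrays they averaged 2.49 to 2.56, near the floor. The control probe sets for 18S ribosomal RNA averaged 12.24 to 12.44 in CLP and 8.57 to 10.32 in DN1. On these controls no DN1 array lay within the CLP range, so these differences between arrays and the population cannot be told apart. DN1 replicate 2 stood apart as well. Its 3′ minus 5′ control probe sets differed by 3.72 for actin and 4.63 for Gapdh, against 2.51 to 2.84 and 3.06 to 3.49 in CLP. DN1 replicate 1 read 2.48 and 3.82 and replicate 3 read 1.59 and 1.68. Replicate 2 also had the highest mean of the immediate early and stress genes, 12.36, so it is no clean reference.

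**Figure D1:**
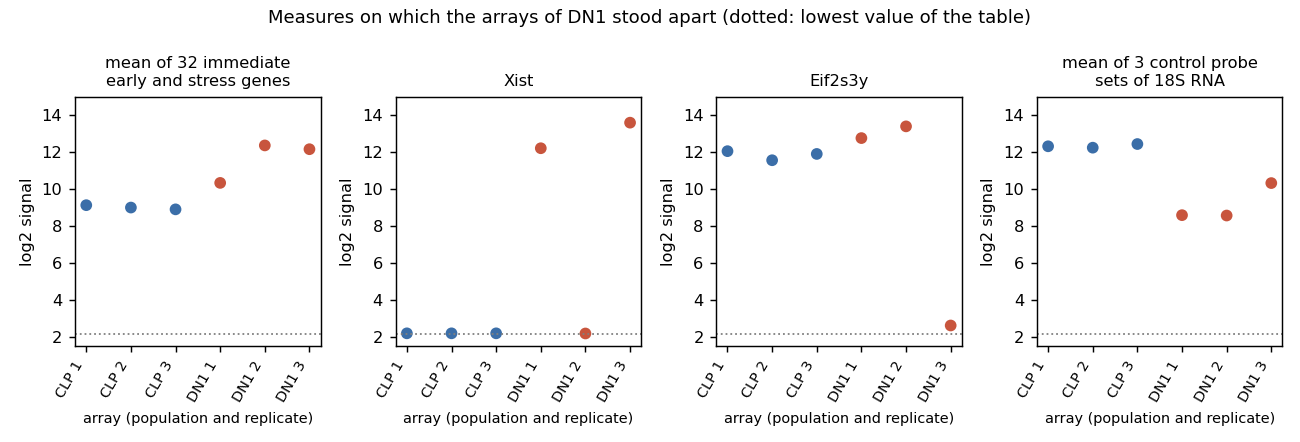
Each panel plots 1 measure in log2 signal for the 3 CLP (blue) and 3 DN1 (red) arrays, 1 point per array, with the floor dotted. The mean of the 32 immediate early and stress genes was 8.90 to 9.13 in CLP and 10.33 to 12.36 in DN1, Xist was high on DN1 replicates 1 and 3, Eif2s3y was low on DN1 replicate 3, and 18S RNA was lower on all DN1 arrays.

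The labelled populations were first set against their markers. In CLP, Il7r, the interleukin 7 receptor, read 13.20, 13.19 and 13.30, Flt3, the cytokine receptor of early lymphoid progenitors, read 13.60, 13.56 and 13.58, and Dntt, the polymerase that adds bases at antigen receptor joints, read 13.98, 14.09 and 14.11. Rag1, Kit and Ly6d were also above the floor on all CLP arrays, and Ebf1, the B lineage factor, read 7.64, 6.98 and 5.02. In DN1, Hes1 and Gata3 were clearly above their CLP levels, as given below. Kit, the stem cell factor receptor, read 12.22, 11.93 and 11.73 in DN1 and 12.01, 11.75 and 11.48 in CLP, and the groups overlapped. Cd44, an adhesion receptor that marks DN1, read 12.49, 12.37 and 12.58 in DN1, but it fell against CLP, as given below. Signal of T cell surface genes in DN1 differed between genes. Cd3e was at 2.18, 2.21 and 2.18 and Thy1 at 5.52, 3.98 and 2.87, Cd7 at 8.82, 7.86 and 8.23, Icos at 9.09, 9.21 and 9.58 and Cd27 at 10.39, 9.77 and 11.11. Of these, Cd7 was the 1 that passed against CLP, where Icos read 9.67, 9.16 and 9.59 and Cd27 10.60, 10.57 and 10.76.

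Between the populations, 4890 of 18193 genes passed the test (26.9%), which was limma's moderated test on all 26 arrays with a Benjamini-Hochberg adjusted p under 0.05. Of all genes tested, 1461 (8.03%) were higher and 3429 (18.8%) lower in DN1. Arrays of the 2 groups did not overlap for 6136 genes (33.7%), of which 4571 also passed. A difference of at least 2 log2 units was found for 277 genes that were higher and 643 that were lower. The median difference was 0 over all genes and -0.29 over the brighter 9096 genes, so the bright genes as a whole read lower in DN1. Quantile normalization moved that median to -0.01 and raised the share of higher genes among those that passed from 29.9% to 48.4% (2289 higher, 2441 lower). The split of directions therefore depends on the scaling. With arrays grouped by spike-in controls as a random block, called the spike-in block below, 1788 genes passed (463 higher, 1325 lower). All CLP arrays fell in a single group and all DN1 arrays in another, so the comparison lies wholly between groups. The fit widens the error by a single correlation for all genes (0.43). For no gene can it tell an effect of the array group apart from that of the population. For each gene list below, the shares of members that rose and fell are set against the 8.03% and 18.8% of all genes. Those shares include the 3701 genes at the floor on all 6 arrays. Of the 9270 genes with a mean above 5 on the 6 arrays, tested alone, 1385 were higher and 3346 lower. Both shares are thus larger among brighter genes, so lists of mostly bright genes exceed the shares of all genes more easily.

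**Figure D2:**
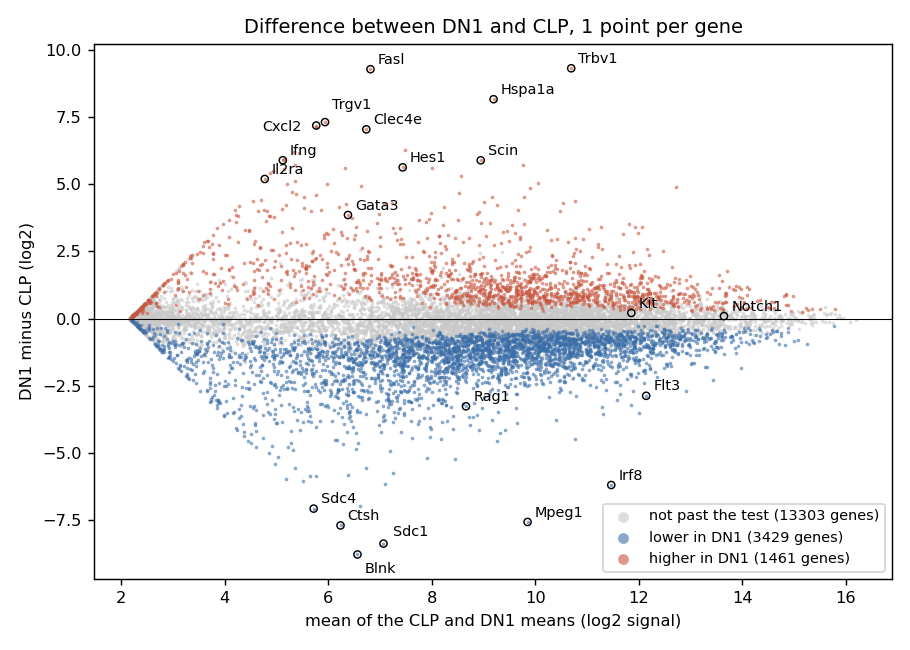
Each point is 1 of 18193 genes, with the mean of the CLP and DN1 means in log2 signal on the horizontal axis and DN1 minus CLP in log2 units on the vertical axis. Red marks the 1461 genes that passed as higher in DN1, blue the 3429 that passed as lower and grey the rest; named examples run from Trbv1 at 9.32 to Blnk at -8.78.

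The largest rise was that of Trbv1, a variable segment of the T cell receptor beta chain, which read 6.37, 5.96 and 5.76 in CLP and 15.55, 15.03 and 15.47 in DN1. All DN1 arrays lay far above all CLP arrays, by 9.32 on average (SE 0.52, adjusted p = 2.14e-10 by limma). The other probe set of Trbv1 did not pass. Fasl, the death ligand of cytotoxic lymphocytes, was at the floor on all CLP arrays and at 11.58, 11.26 and 11.52 in DN1, at least 624-fold higher (adjusted p = 1.82e-18 by limma). Segments of the gamma chain rose as well. Trgv4 read 2.20, 2.20 and 2.62 in CLP and 8.91, 7.37 and 9.24 in DN1, at least 71.9-fold higher. Trgv1 read 2.23, 2.37 and 2.23 in CLP and 11.30, 11.41 and 6.07 in DN1, at least 159-fold higher, with DN1 replicate 3 well below the other DN1 arrays. Members of these V segment families resemble each other, and the probe sets of Trbv1 and Trgv4 are of a kind that the array maker marks as able to bind other transcripts, so which segment was measured is uncertain.

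The other large rises included effector and inflammatory genes. Ifng, the cytokine interferon gamma, was at the floor in CLP and at 6.01, 9.53 and 8.66 in DN1, at least 59.6-fold higher. Cxcl2, a chemokine that draws neutrophils, was at the floor in CLP and at 5.56, 11.80 and 10.72 in DN1, at least 146-fold higher, a call lost with the spike-in block (adjusted p = 0.114). Clec4e, the lectin receptor Mincle, read 4.20, 2.59 and 2.84 in CLP and 10.48, 9.72 and 10.58 in DN1. All 3 genes were above every CLP array on every DN1 array, although DN1 replicate 1 held the lowest DN1 values of Ifng and Cxcl2. Scin, an actin-severing protein, rose by 5.89, and Dzip1, a zinc finger protein, rose by 6.26. Neurl3, a ubiquitin ligase, was at least 74-fold higher.

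The largest fall was that of Blnk, the adaptor that links the B cell receptor to its kinases, which read 10.91, 11.07 and 10.88 in CLP and the floor on all DN1 arrays. It was at least 440.2-fold lower in DN1 (adjusted p = 3.68e-14 by limma). Sdc1, the surface proteoglycan syndecan 1, read 11.53, 11.10 and 11.13 in CLP and 2.30, 3.82 and 2.51 in DN1. The groups were far apart for both genes, and only DN1 replicate 2 kept a trace of Sdc1. Irf8, a transcription factor of dendritic cells, monocytes and B cells, read 14.51, 14.68 and 14.51 in CLP and 8.72, 8.08 and 8.30 in DN1, a difference of -6.20 (SE 0.37). Mpeg1, a pore-forming protein of phagocytes, read 13.83, 13.58 and 13.49 in CLP and 6.56, 6.30 and 5.33 in DN1. Ctsh, a lysosomal protease, and Sdc4, another syndecan, fell from 10.08 ± 0.46 and 9.25 ± 0.46 (SD, n = 3) to near the floor, so both falls are lower bounds, of at least 208-fold and 135-fold. Kcng1, a potassium channel subunit, and Hdac9, a histone deacetylase, fell, with differences of -6.97 and -6.15, and Bfsp2 and Tmem119 differed by -5.84 and -5.82. Lifr, the receptor of leukaemia inhibitory factor, and Nav1 fell to near the floor, at least 66.2-fold and 58.7-fold.

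Most Notch target genes rose. Of 14 measured, 9 rose and 2 fell, with a median difference of 2.41. Over all genes tested, 8.03% were higher, 18.8% lower and the median was 0. This list and those below were drawn up with earlier results of these data known, so their counts are no independent evidence. Hes1, the repressor that Notch signalling induces, read 4.67, 4.92 and 4.27 in CLP and 10.17, 9.61 and 10.98 in DN1. Every DN1 array was far above every CLP array, and the mean rise was 5.63 (SE 0.32, 49.5-fold, adjusted p = 2.71e-10 by limma). Gata3, the zinc finger factor required for the T lineage, read 4.84, 4.34 and 4.17 in CLP and 8.63, 8.07 and 8.22 in DN1. Its arrays did not overlap either, and the rise was 3.86 (SE 0.31, 14.5-fold, adjusted p = 3.10e-08 by limma). Il2ra, the interleukin 2 receptor alpha chain CD25, was at the floor on all CLP arrays and at 8.53, 7.05 and 6.53 in DN1, at least 36.7-fold higher. All DN1 arrays stood above all CLP arrays, with replicate 1 the highest. The other probe set of Il2ra did not pass. CD25 protein is the marker used to part DN2 from DN1.

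Feedback regulators of the pathway rose with them. Nrarp, a small ankyrin protein that limits Notch signalling, read 6.12, 6.04 and 5.64 in CLP and 9.56, 9.44 and 9.76 in DN1. Dtx1, the ubiquitin ligase Deltex, read 2.94, 2.60 and 3.32 in CLP and 6.96, 6.89 and 6.51 in DN1, but another probe set of the gene passed in the opposite direction. Notch3, a receptor that is itself a target, was near the floor in CLP and at 6.31, 6.72 and 5.43 in DN1, at least 14.1-fold higher. The other probe set of Notch3 did not pass. All DN1 arrays of the 3 genes were above all CLP arrays. Gimap5, a lymphocyte survival GTPase, rose by 2.85 (SE 0.29) and Id3 to 5.23, 3.48 and 3.85 from near the floor, at least 3.94-fold. Hes5, a relative of Hes1, read 8.23, 8.30 and 8.09 in CLP and 9.25, 9.63 and 9.01 in DN1, a rise of 1.09 (adjusted p = 0.0402 by limma). That call did not hold when any of CLP replicates 1 to 3 or DN1 replicates 1 or 2 was left out (differences of 0.92 to 1.13) or in DN1 replicate 2 alone (1.42), nor with the spike-in block (adjusted p = 0.276).

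Other members of the list did not rise. Myc, a growth regulator that Notch sustains in T cell leukaemia, read 10.90, 12.33 and 11.71 in CLP and 9.83, 9.08 and 10.26 in DN1, a difference of -1.92 (SE 0.40). Hes6, which opposes Hes1, read 11.60, 11.30 and 11.29 in CLP and 9.29, 9.36 and 9.74 in DN1, a difference of -1.93 (SE 0.13). In neither gene did the groups overlap. Hey1 read 2.34, 3.98 and 2.98 in DN1 against 2.30, 2.61 and 2.30 in CLP and did not pass, and Ptcra, the pre-T cell receptor alpha chain, read 2.23, 2.20 and 2.24 in CLP and 2.20, 2.59 and 2.18 in DN1. Heyl was at the floor on all of them. With the spike-in block 8 members rose and 1 fell, and Myc did not pass (adjusted p = 0.0911). From DN1 replicate 2 alone 8 rose and 2 fell.

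**Figure D3:**
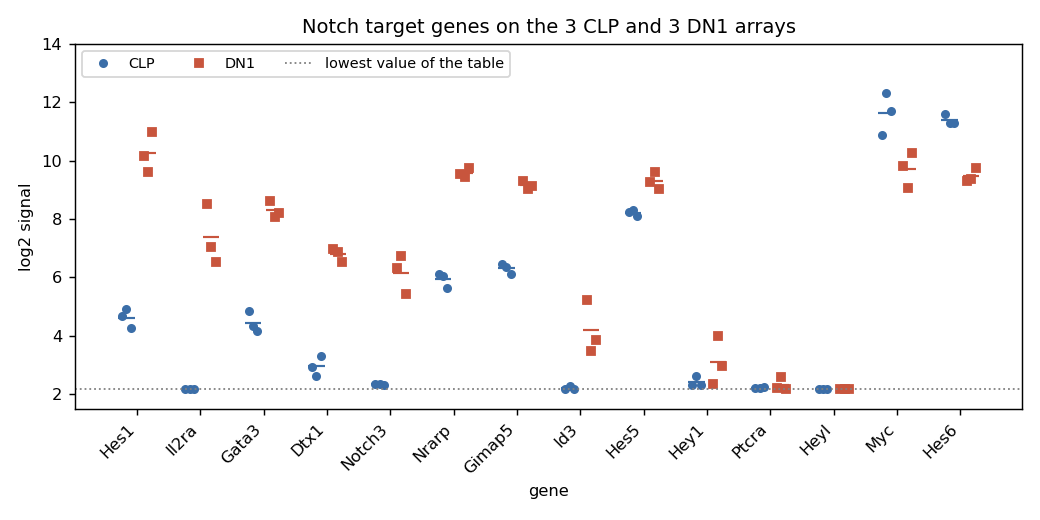
Log2 signals of the 14 measured Notch target genes on the 3 CLP (blue circles) and 3 DN1 (red squares) arrays are shown with group means as short lines and the floor dotted. The 9 genes from Hes1 to Hes5 lie higher in DN1 without overlap, Hey1, Ptcra and Heyl do not separate, and Myc and Hes6 lie lower.

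Promoters were read for the Notch target genes because RBPJ binds a short core, TGGGAA. The bases before the gene start were available for 10 of the 14 members from RefSeq (build GRCm38.p6), with 250 bases searched on both strands (TGGGAA or TTCCCA). The core was found at 2 of the 10 genes, Hes5 and Ptcra, and at 21.6% of all 32851 promoters of that length. The promoters of Hes5 (chr4:154960673-154960922, plus strand) and Ptcra (chr17:46763713-46763962, minus strand) are shown, 5′ to 3′ along the gene and ending at the base before its start, because they hold 2 cores each, written in capitals.
Hes5: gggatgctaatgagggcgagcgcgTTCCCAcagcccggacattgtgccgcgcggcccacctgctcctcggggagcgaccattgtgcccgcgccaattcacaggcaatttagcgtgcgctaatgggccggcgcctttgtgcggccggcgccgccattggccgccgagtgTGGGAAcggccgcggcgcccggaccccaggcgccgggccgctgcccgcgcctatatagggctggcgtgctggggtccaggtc
Ptcra: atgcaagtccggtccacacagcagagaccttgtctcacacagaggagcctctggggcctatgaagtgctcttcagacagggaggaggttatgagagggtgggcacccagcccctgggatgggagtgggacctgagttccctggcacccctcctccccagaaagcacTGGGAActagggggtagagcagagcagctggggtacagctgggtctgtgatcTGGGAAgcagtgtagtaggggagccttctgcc
The cores begin 226 and 82 bases before the start of Hes5 and 84 and 32 bases before that of Ptcra. Of these genes Hes5 rose by 1.09 and Ptcra did not pass. The 8 other genes with a promoter, Gata3, Il2ra, Nrarp, Dtx1, Notch3, Gimap5, Id3 and Hes6, held no such letters in the window.

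Of 22 measured receptors and signal proteins of the pathway, 1 rose (Notch3, 4.55%) and 5 fell (22.7%), both near the shares over all genes, and the median difference was -0.04. With the spike-in block 1 rose and 0 fell, and the adjusted p of the 5 that had fallen was 0.118 (Itch) to 0.358 (Adam10). Notch1, the main receptor of early T cells, read 13.67, 13.76 and 13.36 in CLP and 13.62, 13.45 and 14 in DN1, with overlap and a difference of 0.09 (SE 0.28). Rbpj, the DNA-binding partner, differed by -0.07 (SE 0.17) and Adam17, a protease that cuts Notch, by -0.03 (SE 0.25). Notch2 fell by 0.76 (SE 0.22), and Itch, a ubiquitin ligase acting on Notch, fell by 1.15 (SE 0.26). Of the 3 other probe sets of Itch, 1 passed in the opposite direction. Rfng, a glycosyltransferase of the Fringe family, Spen, a corepressor of RBPJ, and Adam10, the protease of ligand-bound Notch, fell, with differences of -1.48, -1.54 and -0.48. After quantile normalization only Notch2 and Itch passed among the 5, and the Notch2 call was lost without DN1 replicate 1 (-0.55) or 2 (-0.67). The Adam10 call was lost when any 1 of the 6 arrays was left out (-0.52 to -0.46), that of Rfng without CLP replicate 2 (-1.35) or DN1 replicate 1 (-1.30), and those of Rfng (-1.10), Spen (-1.08) and Adam10 (-0.44) from DN1 replicate 2 alone.

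Of 23 measured transcription factors of the T lineage, 4 rose (17.4%) and 6 fell (26.1%), with a median difference of 0.04. Under the spike-in block 2 rose and 2 fell, and the calls lost among those described here were Runx1 (adjusted p = 0.109), Bcl11b (0.379), Nfatc1 (0.181), Sox4 (0.0772), Cbfb (0.0866) and Ets2 (0.241). Besides Gata3, Ikzf2, the Ikaros family member Helios, read 8.99, 8.78 and 8.73 in CLP and 12.29, 11.52 and 11.51 in DN1, a rise of 2.94 (SE 0.20). Runx1 rose by 1.17 (SE 0.24), with 1 of its 5 other probe sets passing in each direction. Bcl11b, the factor that closes off other fates at commitment, was near the floor in CLP and read 9.18, 4.72 and 2.89 in DN1. Its rise of 3.03 came mostly from DN1 replicate 1, and without that array the difference was 1.24 and did not pass. The call was also lost when any 1 CLP array was left out (2.98 to 3.09). Those that fell included Ikzf1, which encodes Ikaros (-1.18), Nfatc1 (-1.27), Sox4 (-1.0), Cbfb, the partner of Runx factors (-0.76), and Ets2 (-0.91). The Ets2 call was lost after quantile normalization (-0.41), from DN1 replicate 2 alone (-0.53) and without CLP replicate 3 (-0.81) or DN1 replicate 1 (-0.68).

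E proteins are basic helix-loop-helix factors that drive lymphoid genes. Of 7 measured E proteins and Id inhibitors, 3 fell (42.9%) and 1 rose (14.3%), the same counts as with the spike-in block. Tcf3, which encodes E2A, read 10.34, 10.56 and 10.49 in CLP and 8.17, 7.89 and 9.10 in DN1, a difference of -2.07 (SE 0.34). Tcf4, which encodes E2-2, read 12.82, 12.87 and 12.26 in CLP and 10.34, 10.72 and 11.48 in DN1, a difference of -1.80 (SE 0.24). Neither gene overlapped between the groups. Tcf12, which encodes HEB, fell by 1.14 (SE 0.18), but the mean of its probe sets differed by 0.26 in the other direction. Among the Id inhibitors, which bind and disable E proteins, Id3 rose as given above, and Id2 read 10.70, 10.64 and 10.85 in CLP and 10.35, 11 and 11.01 in DN1 with overlap. Id1 read 2.17, 2.17 and 2.17 in CLP and 2.17, 2.17 and 2.54 in DN1, and Id4 was at the floor on all 6 arrays.

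Of 24 measured genes of the T cell receptor complex and T cell surface, 3 rose (12.5%) and 2 fell (8.33%), with a median of 0.0, and 5 were near the floor on all 6 arrays. Trat1, an adaptor of the receptor complex, was near the floor in CLP and at 8.45, 7.98 and 8.21 in DN1, at least 53.1-fold higher (adjusted p = 2.40e-16 by limma). Cd7, an early surface protein of T and NK cells, read 4.69, 3.28 and 4.41 in CLP and 8.82, 7.86 and 8.23 in DN1. In both genes all DN1 arrays stood above all CLP arrays. Cd28, the costimulatory receptor, fell by 2.42 (SE 0.61), a call lost from DN1 replicate 2 alone (-1.35) and with the spike-in block (adjusted p = 0.208), which left 2 of the list higher and 0 lower. Cd3d, Cd3g and Cd2, chosen for mention after their values were seen, were at the floor in CLP and high on 1 DN1 array: Cd3d read 7.33, 2.32 and 2.17, Cd3g 5.81, 2.17 and 2.17 and Cd2 7.31, 2.63 and 2.17, and none passed. The same array, DN1 replicate 1, held the highest Bcl11b and Il2ra. Cd4 and Cd8b1, markers of later thymocytes, were at the floor in DN1, and Cd8a read 3.22, 3.18 and 3.18. Of the 11 measured genes of later thymocytes 2 rose (18.2%) and 1 fell (9.09%), and 1 rose and 0 fell with the spike-in block. Those that rose, Egr2 (by 5.59) and Cd69 (by 1.68), also respond to cell activation. The Cd69 call was lost without CLP replicate 2 or 3 or DN1 replicate 2 or 3 (1.31 to 1.67) and with the spike-in block (adjusted p = 0.394).

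Genes of the gamma delta and innate-like T cell list included Maf, a factor of interleukin 17 producing cells, which read 5.55, 4.84 and 5.20 in CLP and 10.61, 11.44 and 10.36 in DN1. The rise was 5.61 (SE 0.41, 48.7-fold) with no overlap, and 4 of 5 other probe sets passed in the same direction. Etv5 read 9.57, 9.05 and 9.13 in CLP and 6.09, 3.57 and 7.36 in DN1, a difference of -3.57 (SE 0.63). Cd163l1, which encodes the receptor Scart1, rose by 2.65 to 5.85, 3.63 and 5.60, a call lost from DN1 replicate 2 alone (1.26) and without CLP replicate 1, 2 or 3 or DN1 replicate 1 or 3 (2.24 to 2.78). Il17a was at the floor on all arrays, and Sox13 and Zbtb16 differed by 0.05 and -0.06. Over the 8 measured, 2 rose (25%) and 1 fell (12.5%). The Cd163l1 call was also lost with the spike-in block (adjusted p = 0.494).

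Of 25 measured genes of the B lineage, 0 rose and 11 fell (44%, against 18.8% of all genes), and the median difference was -0.51. Besides Blnk, Ebf1, the factor that sets the B cell programme in train, read 7.64, 6.98 and 5.02 in CLP and 2.17, 2.19 and 2.17 in DN1, at least 20.7-fold lower (adjusted p = 4.97e-08 by limma). Bank1, a scaffold of B cell receptor signalling, read 9.92, 9.76 and 10.28 in CLP and 5.64, 5.64 and 6.53 in DN1. Vpreb1, part of the surrogate light chain, read 9.20, 8.63 and 8.45 in CLP and 5.53, 5.82 and 5.36 in DN1. In each of the 3 the DN1 arrays lay below all CLP arrays, with differences of -4.05 for Bank1 and -3.19 for Vpreb1. Pax5 was at the floor on all 6 arrays and Cd79a at it on 5, so these defining markers were at or near the floor in both populations. Bright members that did not pass included Ighm, with means of 12.61 in CLP and 12.63 in DN1, and Cd79b, with 9.36 and 9.14. Of the 10 other probe sets of Ighm, 2 passed as lower in DN1. Btk (10.92 and 10.31) and Cd72 (10.28 and 9.29) did not pass either. Of the list, 9 members were near the floor on all 6 arrays. With the spike-in block 5 members fell. In these bulk samples fewer cells of a type and less RNA per cell cannot be told apart.

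Of 16 measured early lymphoid and recombination genes, 2 rose (12.5%) and 6 fell (37.5%), and 1 rose and 3 fell with the spike-in block. Rag1, the recombinase that cuts antigen receptor genes, read 10.82, 10.47 and 9.59 in CLP and 7.79, 6.06 and 7.23 in DN1, a difference of -3.27 (SE 0.43). Its partner Rag2 read 9.29, 9.72 and 9.97 in CLP and 7.18, 6.42 and 6.27 in DN1, a difference of -3.04 (SE 0.42). In contrast Dntt, of the same process, read 13.98, 14.09 and 14.11 in CLP and 14.01, 14.03 and 14.01 in DN1, a difference of -0.04 (SE 0.23). Flt3 read 10.44, 10.65 and 11.02 in DN1 and fell by 2.87 (SE 0.40, 7.33-fold). Il7r read 10.79, 10.79 and 10.02 and fell by 2.70 (SE 0.71, 6.49-fold). The Flt3 and Il7r arrays did not overlap, but from DN1 replicate 2 alone the Il7r difference of -2.44 did not pass. Dtx1 and Xrcc5, a DNA end-binding protein, were the 2 that rose. Xrcc5 rose by 0.94, which was lost without CLP replicate 1 or 3 or DN1 replicate 1 or 2 (0.75 to 0.96). With the spike-in block neither Il7r (adjusted p = 0.245) nor Xrcc5 (0.344) passed.

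Of 27 measured stem and early progenitor factors, 5 rose (18.5%) and 11 fell (40.7%), with a median of -0.41. Mecom, the stem cell factor EVI1, read 7.52, 7.20 and 7.34 in CLP and 2.17, 2.17 and 2.68 in DN1, at least 32.2-fold lower. Hlf, also of stem cells, read 8.56, 8.57 and 8.76 in CLP and 4.21, 4.04 and 3.62 in DN1, a difference of -4.67 (SE 0.27). Both sets of arrays lay apart. Cd93, Meis1 and Spi1, the last encoding PU.1, fell, with differences of -2.28, -1.79 and -1.61. Procr, the endothelial protein C receptor of stem cells, read 3.76, 3.57 and 4.13 in CLP and 7.22, 8.80 and 7.61 in DN1, a rise of 4.06 (SE 0.43). Hoxa7 rose by 3.06 (SE 0.54), Mycn by 1.78 and Erg by 0.98, and the calls of Mycn (1.27) and Erg (0.47) were lost from DN1 replicate 2 alone. Of the 2 other probe sets of Mycn, 1 passed in the opposite direction. The spike-in block left 2 higher and 5 lower, without Spi1 (adjusted p = 0.0569), Mycn (0.0709) and Erg (0.146).

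Of 22 measured granulocyte and macrophage progenitor genes, 3 rose (13.6%) and 9 fell (40.9%), and 2 rose and 6 fell with the spike-in block. Fcgr3, the Fc receptor CD16, was near the floor in CLP and at 7.30, 6.76 and 6.67 in DN1, at least 21.4-fold higher. Ms4a3, a gene of granulocyte progenitors, read 3.06, 3.06 and 3.06 in CLP and 7.65, 7.40 and 6.37 in DN1, at least 16.9-fold higher. DN1 was above CLP on every array for both. Ly86, the partner of a Toll-like receptor relative, read 11.44, 11.44 and 11.87 in CLP and 7.93, 8.21 and 6.96 in DN1, a difference of -3.88 (SE 0.36). Csf3r, the G-CSF receptor, and the factors Cebpd and Cebpa fell, with differences of -2.94, -3.17 and -2.30, the last to near the floor. Mpo, the myeloperoxidase of granule-forming cells, read 14.31, 14 and 14.13 in CLP and 13.63, 13.53 and 13.61 in DN1, a difference of -0.56 (SE 0.61) that did not pass.

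Markers of other cells that a DN1 sample could hold were set beside these. Of 20 measured NK and innate lymphoid genes 5 rose (25%) and 3 fell (15%). The spike-in block left 1 higher and 3 lower, and the rises of Gzma (adjusted p = 0.245), Eomes (0.0553), Nkg7 (0.113) and Il18r1 (0.455) did not pass. From DN1 replicate 2 alone the differences of Nkg7 (0.55) and Il18r1 (1.14) did not pass either, and the Il18r1 call was lost without CLP replicate 1 or 3 or DN1 replicate 1 or 2 (0.90 to 1.02). The granzyme Gzmb read 7.09, 5.0 and 5.98 in DN1 and the granzyme Gzma 5.30, 7.49 and 2.23 in DN1, from near or at the floor in CLP. Eomes, a factor of NK and cytotoxic T cells, read 4.35, 6.04 and 3.27. DN1 replicate 3 was the lowest for Gzma and Eomes. The defining receptor Ncr1 was at the floor on all 6 arrays, as was Klrk1, and Tbx21 read 2.17, 2.20 and 2.17, Il2rb 2.18, 2.17 and 2.17 and Prf1 2.21, 2.17 and 2.19 in DN1. Other genes of the list were high in both populations. Nkg7, a granule protein, read 11.07, 10.79 and 11.10 in CLP and 11.89, 11.54 and 12.65 in DN1. The receptor chain Klrd1 read 11.45, 11.10 and 11.42 in CLP and 10.85, 10.88 and 11 in DN1, and the adaptor Tyrobp 12.71, 12.57 and 12.86 in CLP and 12.44, 12.05 and 12.63 in DN1, neither past the test. Il18rap and Fcer1g fell, with differences of -2.09 and -3.11. The mean level over the 20 genes was 5.48 to 5.54 in CLP and 5.42 to 5.94 in DN1. The part of other cells in the rise of Fasl, Ifng and the granzymes was not tested.

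Of 18 measured dendritic cell and antigen presentation genes, 0 rose and 7 fell (38.9%), and 3 fell with the spike-in block. Siglech, of plasmacytoid dendritic cells, read 5.67, 4.30 and 5.81 in CLP and the floor in DN1, at least 8.5-fold lower. Itgax, which encodes CD11c, read 7.18, 7.05 and 7.39 in CLP and 4.02, 4.63 and 3.24 in DN1, a difference of -3.25 (SE 0.29). Cd74, the class II invariant chain, fell by 3.07 (SE 0.57), with a difference of -1.92 that did not pass from DN1 replicate 2 alone. Members that did not pass included Bst2, with means of 9.65 in CLP and 9.76 in DN1, Irf7 (6.74 and 6.91) and Cd86 (5.47 and 5.17). H2-Ab1 (9.64 and 8.53) did not pass on its brightest probe set, but its 2 other probe sets passed as lower. The mean level over the list was 6.10 to 6.22 in CLP and 5.20 to 5.27 in DN1. Of 17 macrophage genes 12 were near the floor on all 6 arrays and the mean level was 2.82 to 3.02 in CLP and 2.57 to 2.80 in DN1. C1qa was at the floor and Adgre1 read 2.69 to 3.20. Cd68, a lysosomal protein, fell by 3.31 and was the 1 of them that passed. Of 22 stroma, epithelium and endothelium genes 2 rose (9.09%), 3 fell (13.6%; Aire, Krt18 and Pecam1) and 12 were near the floor throughout, with a mean level of 3.42 to 3.61 in CLP and 3.32 to 3.39 in DN1. The Aire call was lost without DN1 replicate 1, 2 or 3 (-0.63, -0.63 and -0.62) and without CLP replicate 2 or 3 (-0.50 and -0.52). The spike-in block left 1 higher and 1 lower, without Aire (adjusted p = 0.278), Krt18 (0.0588) and Ccl25 (0.218). In DN1, Foxn1 of thymic epithelium read 2.18 on all arrays, Cdh5 of endothelium was at the floor and Col1a1 of fibroblasts read 2.17, 2.27 and 2.17. Pdgfrb, a growth factor receptor of stromal cells, read 12.08, 12.10 and 11.92 in CLP and 13.45, 13.53 and 13.52 in DN1. This probe set was also bright in MPPFL+ of the marrow (mean 12.15) and in DN2 (12.25) and DN3 (12.01) of the thymus. The other probe set of Pdgfrb did not pass. Ccl25, a thymic chemokine, rose by 1.19, a call lost from DN1 replicate 2 alone (0.80) and without DN1 replicate 1 (0.85). Hba-a1, the globin of red cells, was at the floor on all 6 arrays, and 2 of 11 red cell and platelet genes rose (18.2%), Itga2b by 2.06 and Car2 by 1.19. Both calls were lost with the spike-in block (adjusted p = 0.0552 and 0.186).

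**Figure D4:**
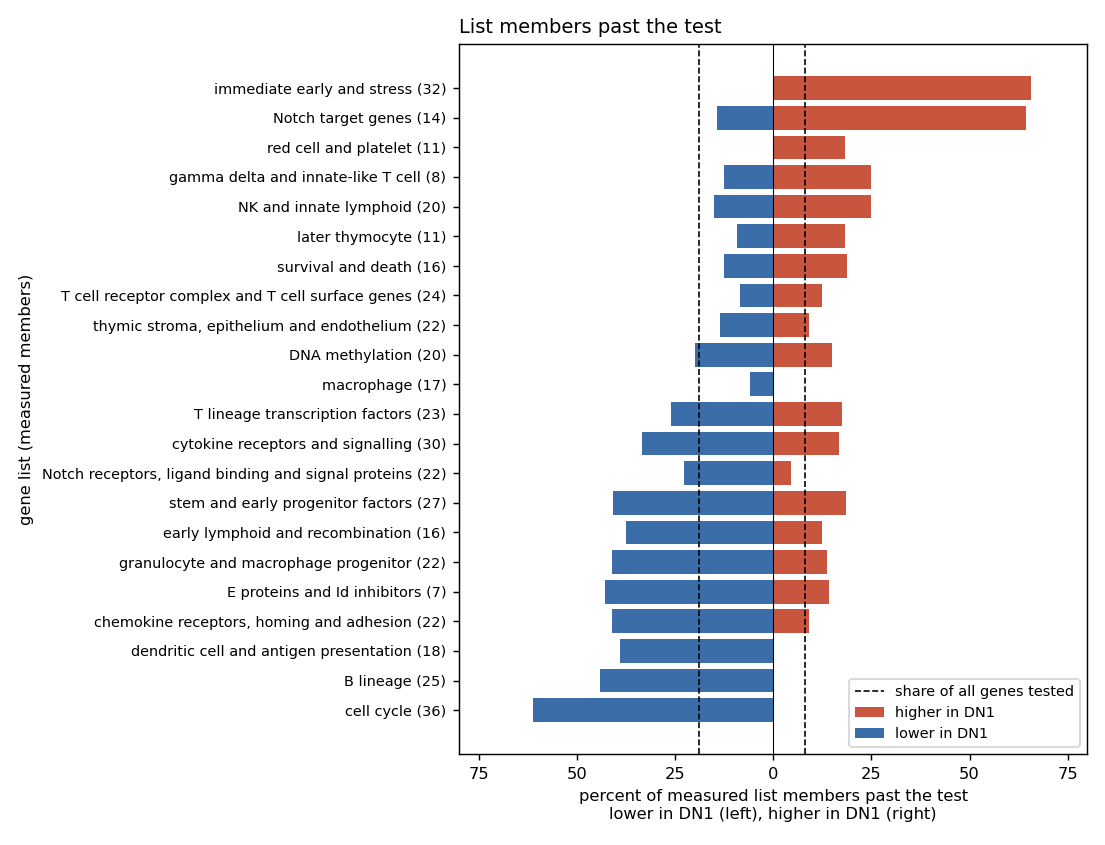
Bars give the percent of measured members of each gene list that passed the test as lower (blue, left) or higher (red, right) in DN1, with the number measured in parentheses, and dashed lines mark the shares of all genes tested, 18.8% and 8.03%. The immediate early and stress list (21 of 32 higher) and the Notch target list (9 of 14 higher) reach farthest to the right, and the cell cycle list (22 of 36 lower) farthest to the left.

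Of 22 measured chemokine receptors and adhesion genes, 2 rose (9.09%) and 9 fell (40.9%), and with the spike-in block 0 rose and 3 fell. Ccr7, a receptor that draws progenitors to the thymus, read 7.02, 6.90 and 6.55 in CLP and 5.14, 2.19 and 3.63 in DN1, a difference of -3.17 (SE 0.48). Ccr9, a receptor with the same role, read 10.40, 10.66 and 10.27 in CLP and 10.20, 10.65 and 10.68 in DN1, overlapping, with a difference of 0.07 (SE 0.55). Cxcr4, the receptor that holds cells in the marrow, read 12.03, 11.79 and 13.50 in CLP and 9.63, 8.99 and 11.11 in DN1, a difference of -2.53 (SE 0.59). Selplg, the ligand of P-selectin, fell by 1.34, Cd44 fell by 1.36 and Itgal, a chain of the integrin LFA-1, fell by 1.58. Itgb7 rose by 1.30, a call lost without CLP replicate 2 (0.90) and from DN1 replicate 2 alone (1.36), and Ccr2 rose by 1.28 (SE 0.27). The calls of Cxcr4 (adjusted p = 0.14), Itgal (0.0515), Itgb7 (0.246) and Ccr2 (0.0916) were lost with the spike-in block.

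Of 30 measured cytokine receptors and their signal proteins, 5 rose (16.7%) and 10 fell (33.3%). In all 1 rose and 4 fell with the spike-in block, and from DN1 replicate 2 alone 2 rose and 8 fell. Jak3, the kinase that serves the interleukin 2 and 7 receptors, read 8.46, 7.81 and 8.19 in CLP and 5.03, 4.51 and 4.35 in DN1, a difference of -3.52 (SE 0.49). Stat5a, a transcription factor downstream of it, read 9.01, 8.59 and 8.96 in CLP and 5.94, 6.14 and 6.79 in DN1, a difference of -2.56 (SE 0.31). Both fell without overlap, beside the fall of Il7r. Socs3, an inhibitor of cytokine signalling, read 8.06, 7.33 and 8.10 in CLP and 9.29, 11.52 and 10.90 in DN1, a rise of 2.74 (SE 0.63) in which DN1 replicate 1 was the lowest DN1 array. That rise did not pass with the spike-in block (adjusted p = 0.105). Of 16 survival and death genes 3 rose (18.8%), Fasl among them, and 2 fell (12.5%), and the spike-in block left 1 higher and 0 lower. Fas, the receptor of Fasl, read 2.21 on all 6 arrays, and Bcl2, which blocks cell death, read 11.32, 12.15 and 11.13 in CLP and 10.92, 10.56 and 10.59 in DN1 and did not pass.

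Of 36 measured cell cycle genes, 0 rose and 22 fell (61.1%), with a median difference of -0.93 against 0 over all genes and -0.29 over bright genes. Aurkb, a mitotic kinase, read 11.98, 11.81 and 11.68 in CLP and 9.36, 8.91 and 8.96 in DN1, a difference of -2.75 (SE 0.21, 6.71-fold). Ccnb2, a mitotic cyclin, read 13.13, 13.11 and 13.15 in CLP and 11.18, 10.74 and 11.36 in DN1, a difference of -2.03 (SE 0.26). All DN1 arrays lay below all CLP arrays in both. Cdkn2c, an inhibitor of the cycle, fell by 3.76 (SE 0.40), the largest fall of the list, and Cdkn1a, another inhibitor, fell by 2.28 (SE 0.52), a call lost from DN1 replicate 2 alone (-1.0). Ccnd3, the cyclin of early T and B cells, fell by 2.57, but 1 of its 2 other probe sets passed in the opposite direction. Of the replication genes, Mcm2 and Mcm7 fell by 1.08 and 0.47. Pcna, at 14.16, 14.16 and 14.22 in CLP and 14.39, 13.98 and 14.60 in DN1, and Mcm5 and Mcm6, with differences of -0.15 and -0.32, did not pass. After quantile normalization 19 members fell and 1 rose, and 11 fell with the spike-in block, without Cdkn1a (adjusted p = 0.142) and Mcm7 (0.166).

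Immediate early and stress genes, which rise within minutes of cell handling or activation, rose on the DN1 arrays. Of 32 measured, 21 rose (65.6%) and 0 fell, with a median of 2.25. Nr4a1, the orphan receptor Nur77 that also follows T cell receptor signals, read 7.10, 6.93 and 6.67 in CLP and 11.71, 13.38 and 12.83 in DN1, a rise of 5.74 (SE 0.90). Egr1 read 8.76, 8.79 and 7.89 in CLP and 11.17, 13.35 and 12.94 in DN1, and its relative Egr3 was at the floor in CLP and at 4.89, 10.11 and 9.34 in DN1. DN1 replicate 1 was the lowest DN1 array for each of the 3. Atf3, a stress factor, was at the floor in CLP and read 2.43, 11.47 and 8.83 in DN1. Its call was lost when any 1 CLP array was left out (5.40 each) and without DN1 replicate 2 (3.46) or 3 (4.78). Fos, which was already at 14.42, 14.19 and 13.78 in CLP, read 13.40, 15.12 and 15.28 in DN1 and did not pass. With the spike-in block 7 members rose, without Egr1 (adjusted p = 0.0627), Egr3 (0.0772) and Atf3 (0.421), and 23 rose from DN1 replicate 2 alone. The part of cell handling, and of the 18S and spike-in differences given above, in these rises was not tested.

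Heat shock genes of the same list included the largest rise after the receptor segment and Fasl. Hspa1a, an inducible HSP70 chaperone, read 5.59, 5.07 and 4.67 in CLP and 12.01, 14.39 and 13.43 in DN1, a rise of 8.17 (SE 1.41, 288-fold, adjusted p = 0.000194 by limma). Hspa1b, a near-identical copy whose transcripts the probes may not part, read 10.36, 10.18 and 10.29 in CLP and 14.80, 15.53 and 15.18 in DN1. Its call was lost from DN1 replicate 2 alone (5.26) and when single arrays were left out (4.72 to 5.08), and it did not pass with the spike-in block (adjusted p = 0.375). Dnajb1, a cochaperone, rose by 1.16 (SE 0.20), and Hsp90aa1 differed by 0.02 (SE 0.12). Heat shock factor binds paired GAA units. The letters GAANNTTC or TTCNNGAA, searched on both strands of 250 bases, were found at 3 of the 4 of these genes with a RefSeq promoter. Over all promoters, counted singly and not by gene, the share was 12.8%. The near-identical copies Hspa1a and Hspa1b hold their match at the same distance from the start, so they are not separate finds. The promoter of Hspa1a (chr17:34972157-34972406, minus strand, GRCm38.p6) is shown because its gene had the largest rise of the list, with its match in capitals, which begins 104 bases before the start.
Hspa1a: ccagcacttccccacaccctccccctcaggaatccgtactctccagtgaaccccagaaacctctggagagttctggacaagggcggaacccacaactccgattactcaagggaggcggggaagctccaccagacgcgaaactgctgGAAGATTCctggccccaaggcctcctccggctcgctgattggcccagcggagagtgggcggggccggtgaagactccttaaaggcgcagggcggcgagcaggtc
The match is a description of these letters and no measure of binding. Hspa1b and Hsph1 held a match as well, and Dnajb1 did not in this window.

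Of 20 measured DNA methylation genes, 3 rose (15%) and 4 fell (20.0%), with a median of 0.01. The spike-in block left 0 higher and 2 lower, and neither Tet2 (adjusted p = 0.0655) nor Uhrf2 (0.13) passed. Dnmt1, the maintenance methyltransferase, read 13.27, 13.62 and 13.42 in CLP and 11.07, 11.52 and 12.40 in DN1, a difference of -1.78 (SE 0.28, 3.42-fold). Its partner Uhrf1, which recognises newly copied DNA, read 13.30, 12.91 and 12.91 in CLP and 10.28, 10.60 and 11.68 in DN1, a difference of -2.18 (SE 0.31). Both lay lower on all DN1 arrays, and both are also known to rise with DNA replication. Dnmt3a, a de novo methyltransferase, read 9.91, 10.15 and 9.89 in CLP and 9.16, 9.20 and 10.69 in DN1 on its brightest probe set, a difference of -0.30 that did not pass. Of its 4 other probe sets 3 passed in the opposite direction, higher in DN1, and the mean of all differed by 1.68, so its direction is not settled. Dnmt3b differed by 0.68 (SE 0.33) and did not pass. Tet2, an enzyme that oxidises methylcytosine, read 8.83, 9.42 and 8.42 in CLP and 10.13, 10.22 and 10.39 in DN1, a rise of 1.35 (SE 0.26), but its other probe set passed as lower and their mean differed by -0.33. Tet1 read 10.89, 11.03 and 10.64 in CLP and 9.32, 8.85 and 10.31 in DN1 and did not pass, Tet3 stayed near the floor, and Uhrf2 rose by 0.97, a call lost from DN1 replicate 2 alone (0.91).

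The levels of 12 of these genes were placed among neighbouring populations, MPPFL+ of the marrow and DN2 and DN3 of the thymus, as a description. Hes1 was at 2.85 ± 0.36 in MPPFL+, 4.62 ± 0.33 in CLP, 10.25 ± 0.69 in DN1, 9.42 ± 0.13 in DN2 and 11.70 ± 0.25 in DN3 (SD, n = 3 each), so the DN1 and DN2 levels were within 1 log2 unit. Gata3 stood at 5.88 ± 0.68, 4.45 ± 0.35, 8.31 ± 0.29, 9.75 ± 0.14 and 10.96 ± 0.26 in the same order. Il2ra went from the floor in MPPFL+ and CLP to 7.37 ± 1.04 in DN1, then 13.14 ± 0.44 in DN2 and 13.16 ± 0.35 in DN3. The levels of Il7r and Rag1 were lower in DN1 than in CLP and DN2. Il7r was at 10.53 ± 0.45 in DN1 against 13.23 ± 0.06 in CLP and 12.89 ± 0.16 in DN2, and Rag1 was at 7.03 ± 0.88 against 10.29 ± 0.63 and 9.26 ± 0.53. Fasl averaged 11.46 ± 0.17 in DN1 and 9.83 ± 0.57 in DN2 but 2.22 ± 0.08, near the floor, in DN3. Flt3, Irf8, Blnk and Mpeg1 were higher in CLP than in DN1, DN2 and DN3, and Kit stayed within 11.66 and 11.96 from CLP to DN2. Outside these 12, some genes that rose were also high in MPPFL+, so that CLP read below both neighbours. Clec4e was at 8.83 ± 0.09 in MPPFL+, 3.21 ± 0.87 in CLP and 10.26 ± 0.47 in DN1. In the same order Ikzf2 was at 11.40 ± 0.24, 8.83 ± 0.14 and 11.78 ± 0.45 and Procr at 11.02 ± 0.56, 3.82 ± 0.29 and 7.88 ± 0.82. Ifng, in contrast, was at the floor in both MPPFL+ and CLP.

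**Figure D5:**
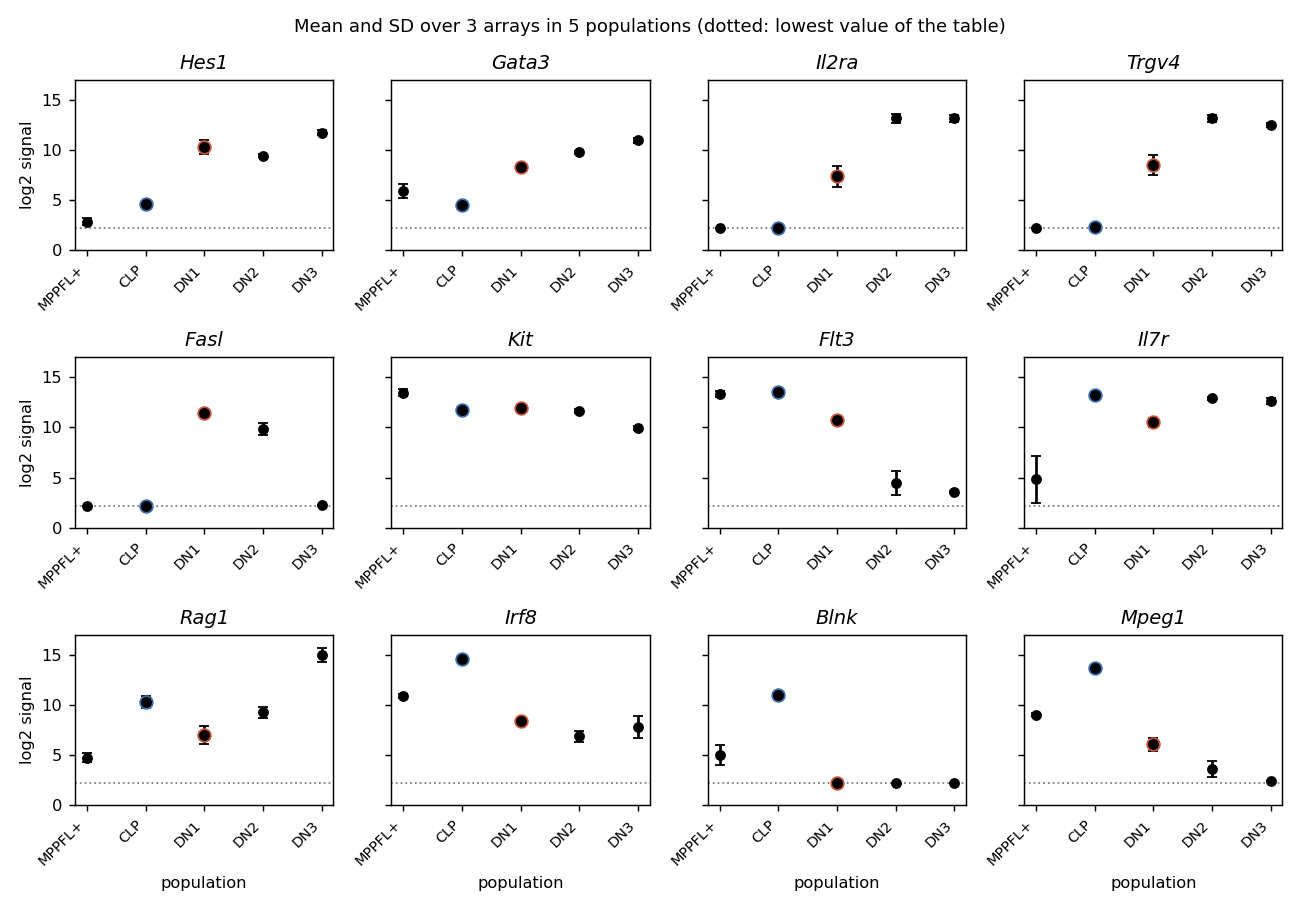
Each panel gives the mean log2 signal of 1 gene with its SD over 3 arrays in MPPFL+, CLP (blue), DN1 (red), DN2 and DN3, with the floor dotted. Hes1, Gata3, Il2ra and Trgv4 are higher in all thymic populations than in CLP, Il7r and Rag1 dip in DN1, and Blnk is at the floor in the thymic populations.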

How the data were processed

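The authors deposited 1 table of log2 signals for 45101 probe sets on 26 arrays. Its normalization and software are not given in the sources used here, and its lowest value, 2.17, is shared by many probe sets. Per the labels' protocols, total RNA was taken in Trizol and biotin-labelled for the arrays.

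Probe sets were named through the platform's annotation: 34945 carried 1 gene, 932 several and 9224 none, and only those with 1 gene were used. The brightest probe set stood for each of 18193 genes. DN1 minus CLP was tested with limma 3.58.1 (R 4.3.3; lmFit and eBayes, two-sided) over all 26 arrays by population, with Benjamini-Hochberg adjustment over all genes and a threshold of 0.05. The script was tested on simulated data. A gene whose lower population was within 1 log2 unit of the lowest value on all its 3 arrays is given as at least N-fold.

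Genes were named by rule: up to 12 genes per direction with the greatest difference and no overlap, up to 5 members of each list per direction, up to 4 bright members not past the test, and set markers. Other markers and examples were named with their values known. The members and lists were chosen with earlier results of these data known. Promoters came from RefSeq (GRCm38.p6). Alternatives covered normalization, dim genes, probe sets, the spread model, control probe sets and single arrays.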

Additional observations from a re-analysis of the deposited data

How the results depend on the processing

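The number of genes that passed was 4890, with 1461 higher and 3429 lower in DN1. It was 2887 (807 higher, 2080 lower) in a limma fit to the 6 arrays alone, where 38 of 128 named genes that had passed lost their calls. It was 884 (233 and 651) when tested against a fold change of 2, and 1788 (463 and 1325) with arrays grouped by spike-in controls as a random block. Quantile normalization gave 2289 higher and 2441 lower, and centring each array on the median of its bright genes gave 10832 (8041 higher, 2791 lower), a setting that lifts every gene at the lowest value in DN1. Testing every one of 45037 probe sets gave 10416 (4575 and 5841). Leaving out single arrays gave 4193 to 5057 genes, of which 1192 to 1769 were higher and 2816 to 3288 lower. The replicate numbers did not pair the arrays (correlations of deviations 0.0056, 0.061 and 0.18 for equal numbers). With the replicate number as a block 4517 genes passed, 1356 higher and 3161 lower. Of the named genes Adam10, Cd163l1 and Il18r1 lost their calls. The mean of all probe sets of a gene turned the direction of Ccnd3 (0.16), Tcf12 (0.26), Dnmt3a (1.68) and Tet2 (-0.33). Median centring turned genes at or near the lowest value, with 0.29 for Cd8b1, Hba-a1, Id4, Il17a, Klrk1, Ncr1 and Pax5 and 0.28 for Il2rb. The number of arrays, 3 against 3, limits the precision, and 33.8% or more of the probe sets on each of the 6 arrays were at the lowest value.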

Other observations

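Of 23 measured interferon-stimulated genes, which cells turn on after interferon binds its receptor, 11 rose and 0 fell in DN1. The list was chosen after values had been seen and is no independent evidence. The median difference was 0.95, and 8.03% of all genes tested were higher. Isg20, an antiviral exonuclease, read 6.71, 6.98 and 7.11 in CLP and 10.80, 10.79 and 11.09 in DN1, a rise of 3.96 (SE 0.23, adjusted p = 4.56e-10 by limma). Ifit3, which hinders translation of viral RNA, read 5.14, 5.06 and 5.06 in CLP and 8.72, 9.61 and 9.79 in DN1. Rsad2, which encodes viperin, read 8.10, 7.11 and 7.71 in CLP and 11.34, 12.55 and 11.18 in DN1. All DN1 arrays of the 3 genes lay above all CLP arrays. In MPPFL+ the means were 9.20 for Isg20, 9.90 for Rsad2 and 5.58 for Ifit3, each between those of CLP and DN1. Cxcl10, a chemokine that interferon gamma induces, rose by 2.62 (SE 0.44). With the spike-in groups as a random block 8 members rose, and 12 rose from DN1 replicate 2 alone.

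Of 24 measured lysosomal genes, a list chosen in the same way, 0 rose and 11 fell in DN1, with a median of -0.50, where 18.8% of all genes tested were lower. Ctsb, the protease cathepsin B, read 12.93, 12.47 and 12.67 in CLP and 10.34, 10.02 and 9.72 in DN1, a difference of -2.66 (SE 0.16). Lgmn, the protease legumain, read 8.43, 8.15 and 8.58 in CLP and 3.06, 2.77 and 5.78 in DN1, and Prcp, a carboxypeptidase, read 10.46, 10.31 and 10.67 in CLP and 5.58, 5.71 and 7.78 in DN1. The groups did not overlap, and DN1 replicate 3 was the highest DN1 array for Lgmn and Prcp. Of the list, 6 members fell with the spike-in groups as a random block.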
